A study of Frankliniella occidentalis and Frankliniella intonsa with 9 samples.

Results

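Sensory neuron membrane proteins (SNMPs) are insect membrane proteins of the CD36 family, and they were taken here as every assembled gene whose annotation text or Swiss-Prot description contains that name. The search found 9 genes among 48889 in an assembly that holds transcripts of both thrips species. The 9 libraries were made from antennae of adults aged 1 day. Frankliniella occidentalis, the western flower thrips, gave 3 female and 3 male libraries, and Frankliniella intonsa gave 3 female ones. No treatment or genotype is given in the labels, and male F. intonsa were not analysed here. Values are TPM, a share of a library's transcripts scaled for transcript length. Levels of different genes are set side by side on that scale, though an assembled gene may be only part of a transcript. Nothing in the labels ties a replicate to an insect or a pool, so every p-value rests on the spread among these libraries, and that spread may be only technical.

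Proteins of the CD36 family cross the membrane near each end of the chain and hold a large loop outside the cell, which in several members binds lipids. In Drosophila and in moths SNMP1 lies in the dendrite membrane of pheromone-sensing olfactory neurons, and the fly protein is needed for normal detection of the pheromone cis-vaccenyl acetate. In moths SNMP2 is found in the support cells that surround olfactory neurons. Other family members take up dying cells (croquemort in flies), lipoproteins (scavenger receptor class B in mammals) or serve the lysosome.

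The 9 genes fell into 4 that matched SNMP2 and 5 that matched SNMP1. Those matching SNMP2 were TRINITY_DN38554_c0_g3 and TRINITY_DN38554_c0_g4, with a mosquito Swiss-Prot match (Aedes aegypti), and TRINITY_DN43453_c0_g8 and TRINITY_DN43453_c0_g3, with a moth match (Manduca sexta). The first pair carried the text of a partial chemosensory protein of a cockroach in the other annotation column. Those matching SNMP1 were 4 genes of the assembly component TRINITY_DN41797_c0 (g3, g5, g7 and g8), with a honey bee match, and TRINITY_DN39854_c0_g1, with a moth match and an unnamed protein as its other annotation. All 9 carried the CD36 protein domain, which the search did not use, as did 30 other genes of the table. Their KEGG orthology names were more general: lysosome membrane protein 2 for 4 genes, scavenger receptor class B member 1 for 3 and CD36 antigen for 2. Listed lengths ran from 720 bases for TRINITY_DN38554_c0_g4 to 2384 bases for TRINITY_DN41797_c0_g8. Genes of the same component can be parts, isoforms or alleles of the same gene, and how reads were divided between them is uncertain. The 9 assembled genes therefore need not be 9 separate genes.

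Of the 9 genes, 6 were above 0 in F. occidentalis, 6 in F. intonsa and 3 in both. Over the whole table, 9928 of 48889 genes were above 0 in both species. Each F. occidentalis library held the same number, 6, while F. intonsa libraries 1, 2 and 3 held 2, 6 and 0.

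The F. intonsa libraries stood apart from each other before any comparison. They held 16360, 28515 and 10556 genes above 0, against 22666 to 24204 in the F. occidentalis libraries. Genes with no database match took 84.9%, 44.3% and 92.2% of TPM in F. intonsa libraries 1, 2 and 3, against 23.2% to 29.1% in F. occidentalis. TPM is a share, and how far this lowered the values of annotated genes was not tested. The odorant receptor coreceptor (Orco), which works with nearly every insect odorant receptor and marks olfactory neurons, summed over the 2 genes so named to between 9.16 and 23.3 TPM in the 6 F. occidentalis libraries. It was at 0.08, 18.4 and 0 TPM in F. intonsa libraries 1, 2 and 3. Genes whose annotation names WN48_00612 took 24.7% to 32.4% of TPM in F. occidentalis, and 0.00237%, 1.61% and 0.000598% in those 3 libraries. Values of F. intonsa are given per library for this reason, and a 0 there is called a listing.

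**Figure D1:**
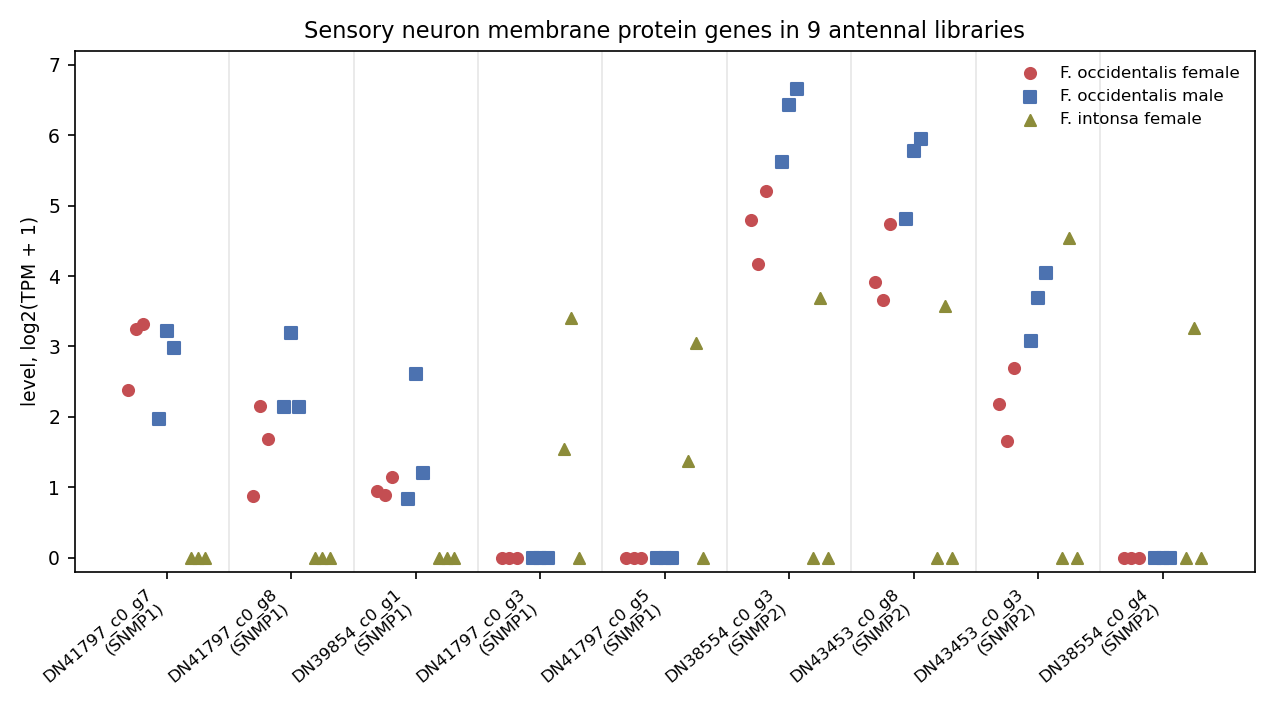
Level of each SNMP gene as log2(TPM + 1) on the vertical axis, by gene on the horizontal axis, with 1 point per library and colour and shape for the 3 groups. The 3 SNMP2 genes at the right that were above 0 in F. occidentalis had every male point above every female point, and F. intonsa points above 0 came from library 2 for all 6 genes and also from library 1 for 2 SNMP1 genes.

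An SNMP2 gene had the highest mean level of all CD36-domain genes in F. occidentalis antennae, in both sexes, though not in every library. TRINITY_DN38554_c0_g3 was at 26.7, 17.1 and 35.9 TPM in female libraries 1, 2 and 3 and at 48.2, 85.4 and 100.2 TPM in male libraries 1, 2 and 3. The lowest male library lay above the highest female library. Its mean over the 6 libraries, 52.2 TPM, ranked 1 among the 39 genes with a CD36 domain. In the single libraries it held place 1 in 5 of 6, and place 5 in female library 2. Its listed length was 722 bases, and how far such ranks depend on the assembly was not tested.

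TRINITY_DN43453_c0_g8 was at 14.0, 11.6 and 25.6 TPM in the female libraries and at 27.1, 53.7 and 60.6 TPM in the male libraries. The sexes did not overlap, though male library 1 and female library 3 were close. By mean over the 6 libraries it ranked 2 among CD36-domain genes, at 32.1 TPM, with rank 6 in females and rank 2 in males.

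TRINITY_DN43453_c0_g3, of the same component, was lower. Its female libraries read 3.53, 2.14 and 5.45 TPM and its male libraries 7.45, 11.9 and 15.5 TPM. Again all 3 male libraries were above all 3 female libraries. TRINITY_DN38554_c0_g4 was listed at 0 in all 6 F. occidentalis libraries.

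None of the SNMP2 differences between the sexes passed the threshold when all genes were adjusted together. For TRINITY_DN38554_c0_g3 the male minus female difference in log2(TPM + 1), called the log2 fold change from here on, was 1.51 ± 0.38 (SE, 3 libraries per sex). Its 95% interval was 0.66 to 2.36 and its adjusted p was 0.0844 in limma-trend. For TRINITY_DN43453_c0_g8 the log2 fold change was 1.41 ± 0.41 (SE), the interval 0.49 to 2.33 and the adjusted p 0.125 (limma-trend). For TRINITY_DN43453_c0_g3 it was 1.43 ± 0.41 (SE), with an interval of 0.51 to 2.35 and an adjusted p of 0.124 (limma-trend). Their unadjusted p-values were 0.00295, 0.00685 and 0.00665.

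Of the 6 SNMP genes tested, 0 passed an adjusted p of 0.05 in limma-trend, against 1.89% of all 22015 genes (0.968% higher and 0.918% lower in males). An unadjusted p under 0.05 was found for 3 of the 6, against 15.5% of all genes. Sexes that did not overlap, with males higher, were found for the same 3 genes, against 13.3% of all genes, or 20.1% when either direction is counted. TRINITY_DN43453_c0_g8 and TRINITY_DN43453_c0_g3 share a component, and all 3 kept nearly fixed proportions over the libraries (below). They may therefore not count as 3 separate genes. The median log2 fold change of the 6 was 1.16 and that of all genes tested was 0.19. Quantile normalization moved the median of all genes by −0.21, and relative to that median the 3 SNMP2 genes stood at 1.33, 1.22 and 1.24 with the deposited scaling and at 1.45, 1.30 and 1.21 after it.

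Levels of the SNMP1 genes overlapped between the sexes. TRINITY_DN41797_c0_g7 read 4.22, 8.47 and 9.01 TPM in the female libraries and 2.90, 8.32 and 6.90 TPM in the male ones, and the ranges overlapped. Its log2 fold change was −0.26, with a 95% interval of −1.27 to 0.75 (adjusted p = 0.842, limma-trend). Without male library 1 its sign turned, to 0.12.

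Female libraries read 0.84, 3.45 and 2.20 TPM for TRINITY_DN41797_c0_g8, and male libraries 3.41, 8.09 and 3.40 TPM. Male libraries 1 and 3 lay just under female library 2. The log2 fold change was 0.92, with an interval of −0.23 to 2.06 (adjusted p = 0.443, limma-trend), which does not show that the sexes were alike. TRINITY_DN39854_c0_g1 read 0.93, 0.85 and 1.22 TPM in the female libraries and 0.78, 5.08 and 1.29 TPM in the male ones. Male library 2 alone stood above the rest. Its log2 fold change was 0.55, with an interval of −0.95 to 2.05 (adjusted p = 0.764, limma-trend).

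The order of levels differed between the sexes in its middle. In both sexes TRINITY_DN38554_c0_g3 was above TRINITY_DN43453_c0_g8 in 3 of 3 libraries, though their ranges overlapped, and both lay clear of all other SNMP genes. In females the third place was held by the SNMP1 gene TRINITY_DN41797_c0_g7, at 7.23 ± 2.62 TPM, above the SNMP2 gene TRINITY_DN43453_c0_g3, at 3.71 ± 1.66 TPM (SD, n = 3 each), in 3 of 3 libraries. In males these were reversed in 3 of 3 libraries, at 6.04 ± 2.81 and 11.6 ± 4.02 TPM (SD, n = 3 each). The ranges of this pair overlapped in each sex. At the low end, neighbours in the order had ranges that overlapped: TRINITY_DN41797_c0_g8 with its neighbours on either side in females, and with TRINITY_DN41797_c0_g7 and TRINITY_DN39854_c0_g1 in males.

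Summed over the family, SNMP transcripts were at 50.2, 43.6 and 79.4 TPM in female libraries 1, 2 and 3 and at 89.9, 172 and 188 TPM in male libraries 1, 2 and 3. Male libraries averaged 150.1 ± 52.6 TPM against a female mean of 57.8 ± 19.1 TPM (SD, n = 3 each), a ratio of 2.60, with male libraries all above female ones. An exact two-sided permutation test gave p = 0.1, the smallest that 3 against 3 allow, and 0.2 after Benjamini-Hochberg adjustment over the 8 single-value tests made. Antennae were sequenced whole, so more cells of a type and more RNA per cell cannot be told apart.

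Of the difference of 92.3 TPM between these means, 89.3 TPM lay in SNMP2. Its genes summed to 44.2, 30.9 and 67.0 TPM in females and to 82.8, 151 and 176 TPM in males, a ratio of means of 2.89 (exact permutation p = 0.1, adjusted p = 0.2, n = 3 per sex). The SNMP2 genes of component TRINITY_DN43453_c0 alone gave a ratio of 2.83, at 20.8 ± 9.09 and 58.7 ± 21.6 TPM (SD, n = 3 each; exact permutation p = 0.1, adjusted p = 0.2). The split into classes was made after the values were seen. Each SNMP2 gene above 0 here had males above females without overlap. Neither sum could therefore overlap, and their tests are no further support. SNMP1 genes summed to 5.99, 12.8 and 12.4 TPM in females and to 7.09, 21.5 and 11.6 TPM in males, and these ranges overlapped (exact permutation p = 0.7, adjusted p = 0.7). Without male library 2 the SNMP1 ratio, 1.29, was 0.898. The difference between the classes was tested as the log2 ratio of SNMP2 to SNMP1 in each library, which averaged 2.20 ± 0.83 over female and 3.43 ± 0.57 over male libraries (SD, n = 3 each). The ranges overlapped, and the exact permutation test gave p = 0.2 (adjusted p = 0.32), so SNMP1 and SNMP2 were not shown to differ in their sex difference.

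**Figure D2:**
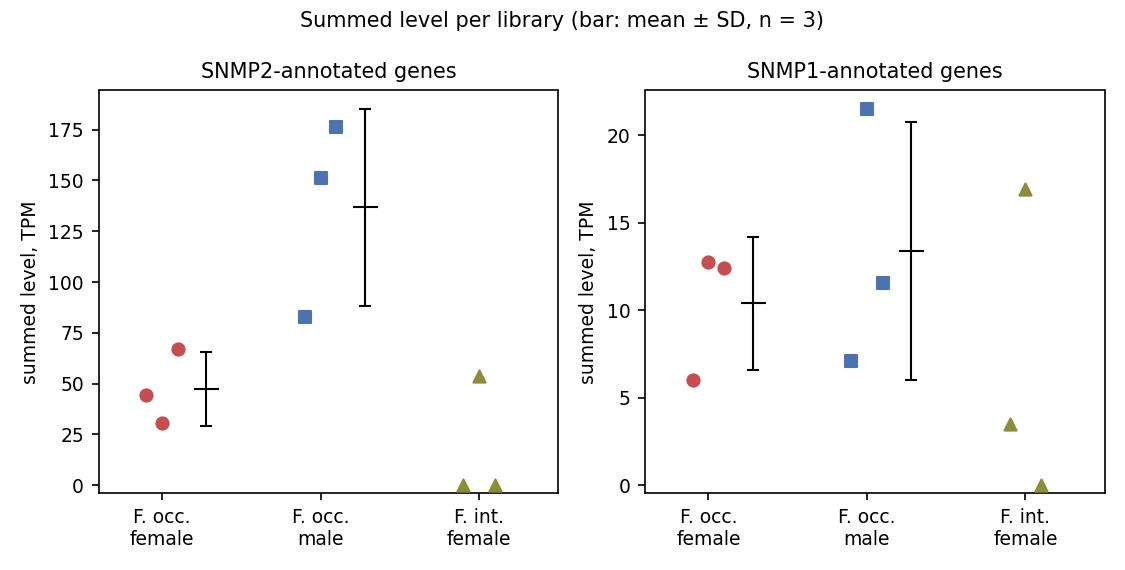
Summed TPM (vertical axis, a scale for each panel) of SNMP2 genes at the left and SNMP1 genes at the right in each library of the 3 groups, with the mean ± SD (n = 3) for the F. occidentalis groups. Male SNMP2 sums, from 82.8 to 176 TPM, all lie above female ones, from 30.9 to 67.0 TPM, while SNMP1 sums of the sexes overlap.

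The 3 SNMP2 genes kept nearly fixed proportions across the F. occidentalis libraries. TRINITY_DN38554_c0_g3 was 1.63 ± 0.19 times TRINITY_DN43453_c0_g8 (SD, n = 6), within 1.40 to 1.90 in every library. TRINITY_DN43453_c0_g8 was 4.36 ± 0.65 times TRINITY_DN43453_c0_g3 (SD, n = 6), within 3.64 to 5.43. Over the same libraries the level of TRINITY_DN38554_c0_g3 itself ran from 17.1 to 100.2 TPM.

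An assembled gene with no database match in the same component, TRINITY_DN43453_c0_g7 with a listed length of 520 bases, had a like profile. Its female libraries read 12.8, 10.2 and 23.8 TPM and its male libraries 27.9, 47.3 and 56.3 TPM. That made it 0.926 ± 0.054 times TRINITY_DN43453_c0_g8 (SD, n = 6), within 0.878 to 1.03. Its fitted difference between the sexes was 1.46 ± 0.39 on the log2 scale (SE; limma-trend adjusted p = 0.106). Whether it is another part of an SNMP2 transcript was not tested, since the table holds no sequence.

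Among the 11890 genes with a mean of at least 5 TPM other than the most abundant SNMP2 gene, likeness to its profile was measured as the root mean square difference of log2(TPM + 1), each gene centred on its own mean, over the 6 F. occidentalis libraries. TRINITY_DN43453_c0_g3 was the nearest of all, at 0.078, TRINITY_DN43453_c0_g7 was in place 2 at 0.132, and TRINITY_DN43453_c0_g8 in place 4 at 0.145. Among genes with an informative product name, the next was a gene matching the sodium channel Nach of the degenerin and epithelial sodium channel family (TRINITY_DN41523_c0_g5, 0.156). It read 3.62, 3.29 and 6.45 TPM in female and 8.98, 14.8 and 19.6 TPM in male libraries, again without overlap. A gene named 1,5-anhydro-D-fructose reductase (TRINITY_DN41955_c0_g10, 0.241) and a cytochrome P450 4C1-like gene (TRINITY_DN46044_c0_g4, 0.265) completed the 5 nearest named genes. These 6 libraries include both sexes, so part of the likeness is the shared difference between them.

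**Figure D3:**
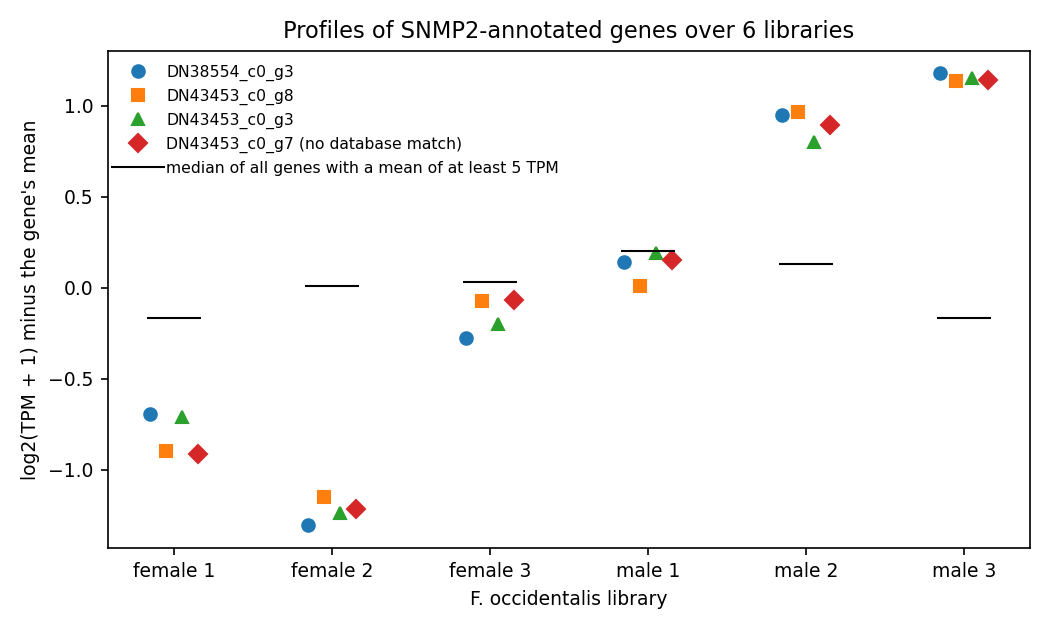
Level of the 3 SNMP2 genes and of the unmatched gene TRINITY_DN43453_c0_g7 in each F. occidentalis library (horizontal axis), as log2(TPM + 1) minus the gene's own mean (vertical axis), with a dash for the median of all genes with a mean of at least 5 TPM. The 4 genes lie close together in each library, lowest in female library 2 and highest in male library 3.

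Other genes of the CD36 family differed in direction between the sexes. Of 25 other family genes by wording (croquemort, peste, scavenger receptor class B, lysosome membrane protein 2 and epithelial membrane protein), 21 were tested between the sexes and 0 passed the threshold in either direction (limma-trend). An unadjusted p under 0.05 was found for 3 of the 21, against 15.5% of all genes, and sexes that did not overlap for 3, against 20.1%. As fitted values, 15 were higher and 6 lower in males. Their median log2 fold change was 0.14, against 0.19 for all genes, and −0.12 after quantile normalization. A croquemort match, TRINITY_DN43030_c0_g8, had the largest log2 fold change of the 29 CD36-domain genes tested, 1.93 (adjusted p = 0.0831, limma-trend), and the 3 SNMP2 genes took places 2, 3 and 4. That gene read 2.90, 0.34 and 2.47 TPM in female and 7.29, 9.45 and 10.7 TPM in male libraries. By mean over the 6 libraries the most abundant of the 25, at 23.3 TPM, was TRINITY_DN45838_c0_g6, which matches scavenger receptor class B member 1. It averaged 19.3 ± 5.44 TPM over female and 27.3 ± 6.05 TPM over male libraries (SD, n = 3 each). Within each sex others of the 25 had higher means, such as TRINITY_DN45426_c0_g3 at 21.95 TPM in females and TRINITY_DN41264_c0_g8 at 27.78 TPM in males. Of the peste matches, TRINITY_DN40237_c1_g4 read 7.08, 5.98 and 5.85 TPM in female and 15.8, 16.8 and 11.6 TPM in male libraries (adjusted p = 0.118, limma-trend). TRINITY_DN40237_c1_g1, of the same component, went the other way, at 2.02, 6.43 and 5.29 TPM in female and 4.81, 0 and 2.32 TPM in male libraries. Its log2 fold change was −0.96 (adjusted p = 0.57, limma-trend), and that of the peste match TRINITY_DN43865_c2_g4 was 0.40. Peste is a fly member known from the uptake of mycobacteria.

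Set against the summed level of those 25 genes in the same library, SNMP2 was 0.154 to 0.299 times as abundant in females and 0.331 to 0.737 times in males. On the log2 scale that ratio averaged −2.10 ± 0.52 over female and −0.88 ± 0.63 over male libraries (SD, n = 3 each), with no overlap (exact permutation p = 0.1, adjusted p = 0.2). SNMP2 was set apart after its values were seen, so this test too is no further support. The 25 genes themselves summed to 161.6 to 223.8 TPM in females and 229.5 to 250.5 TPM in males, so these sums too did not overlap.

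**Figure D4:**
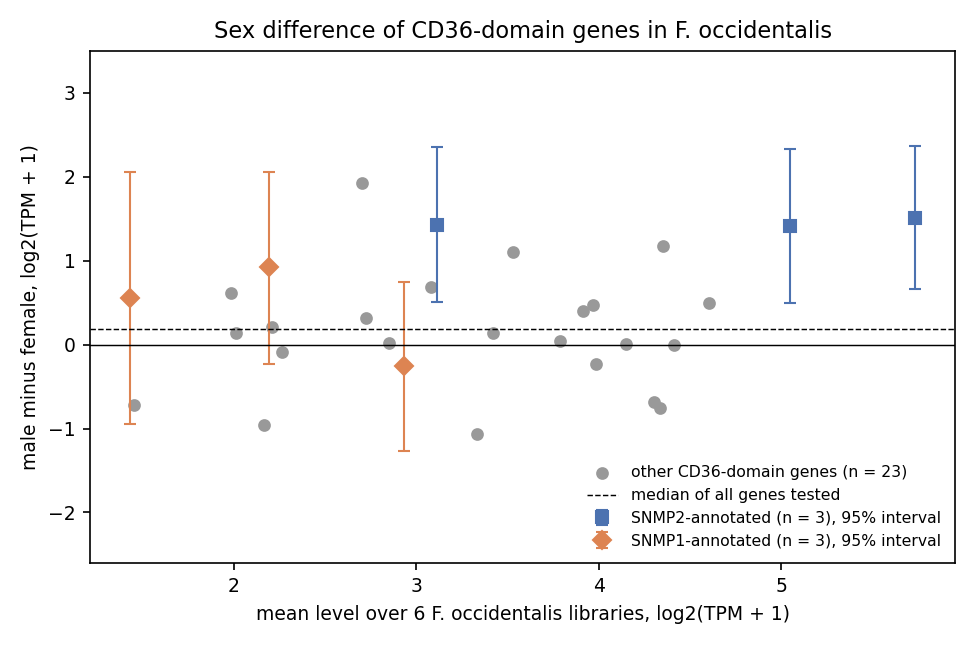
Male minus female difference in log2(TPM + 1) (vertical axis) against the mean level over the 6 F. occidentalis libraries (horizontal axis) for the 29 CD36-domain genes tested, with 95% intervals for SNMP genes and a dashed line at the median of all genes tested, 0.19. The intervals of the 3 SNMP2 genes lie above 0 and those of the 3 SNMP1 genes span it, and 1 gene of the rest of the family, a croquemort match, has a larger fitted difference.

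Other genes of the olfactory pathway had lower median differences between the sexes than the SNMP2 genes. Of 6 odorant receptors tested, which bind odorants on the neuron, 0 passed the threshold in either direction (limma-trend) and the median log2 fold change was 0.16. The most abundant of them, the Orco gene TRINITY_DN45794_c1_g8, averaged 8.92 ± 2.64 TPM over female and 10.6 ± 4.47 TPM over male libraries (SD, n = 3 each). Of 4 ionotropic receptors, another family of chemoreceptors, 0 passed and the median was 0.68. Of 9 odorant-binding proteins, which carry odorants through the fluid around the dendrite, 0 passed and the median was 0.27. Of 8 chemosensory proteins 0 passed, with a median of −0.03, and of 14 esterases and oxidases that could degrade odorants 0 passed, with a median of 0.28. Over all genes 1.89% passed the threshold. The numbers with an unadjusted p under 0.05 were 0, 1, 0, 2 and 2, against 15.5% of all genes. Sexes did not overlap for 1, 1, 0, 2 and 4 genes, against 20.1% of all genes. The highest log2 fold changes in these lists were 0.68, 1.03, 0.58, 0.39 and 1.27, and the lowest −0.84, 0.37, −0.21, −2.58 and −1.51. With 1 library left out the odorant receptor median ranged from −0.04 without female library 1 to 0.29, the ionotropic receptor median from 0.20 without female library 1 to 0.81, and the odorant-binding protein median from −0.06 without male library 2 to 0.56. Differences between these lists and the SNMP2 genes were not tested, and SNMP2 was set apart from SNMP1 after the values were seen.

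Neuronal markers were also higher in 2 of 3 male libraries. The 19 listed genes (elav, synaptotagmin, synaptobrevin, syntaxin, complexin, bruchpilot and choline acetyltransferase wording) summed to 122.4, 153.8 and 166.4 TPM in females and to 282.2, 332.7 and 160.5 TPM in males, with 16 of the 19 above 0 in each sex and 3 at 0. Of the 16 tested, 0 passed the threshold (limma-trend) and 6 had an unadjusted p under 0.05, against 15.5% of all genes. Their median log2 fold change was 0.72, against 0.19 for all genes. Male library 3, with the highest SNMP2 sum of 176 TPM, had neuronal markers within the female range. SNMP2 over neuronal markers, as a log2 ratio, averaged −1.70 ± 0.54 for female and −0.92 ± 0.97 for male libraries (SD, n = 3 each). The exact permutation test gave p = 0.4 (adjusted p = 0.457), so relative to these markers the sexes were not shown to differ. The part of neuronal content in the SNMP2 difference was not tested further.

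Markers of other tissues were lower in males or overlapped. Fat body genes (56 by wording, 44 above 0 in females and 38 in males) summed to 6660 to 12461 TPM in females and 82.8 to 114.8 TPM in males. Of the 43 tested, 35 passed the threshold as lower in males (limma-trend), against 0.918% of all genes. They included vitellogenins, the yolk protein precursors, which had the 4 lowest log2 fold changes, from −9.24 to −8.25. Over the 43 tested the median was −6.55 and the highest −0.21. A yolk precursor can differ between the sexes without a difference in fat body content. The other genes of the list were not summed apart, so these sums do not measure that content. Muscle genes summed to 36303 to 56291 TPM in females and 22070 to 42630 TPM in males, and eye genes to 2583 to 3679 and 1357 to 3366 TPM. The part of these differences in the SNMP values was not tested.

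In F. intonsa females, transcripts of the 9 annotated SNMP genes were listed almost entirely in library 2. Their sum was 3.49, 70.5 and 0 TPM in libraries 1, 2 and 3, against 43.6 to 79.4 TPM in F. occidentalis females. The groups overlapped through library 2, and the exact two-sided permutation test gave p = 0.3 (adjusted p = 0.4, n = 3 each). The ratio of the F. intonsa to the F. occidentalis mean was 0.427, and 0.0302 without F. intonsa library 2.

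The SNMP2 genes seen in both species had other proportions in F. intonsa library 2. TRINITY_DN43453_c0_g3 was the highest there, at 22.2 TPM, TRINITY_DN38554_c0_g3 was at 11.8 TPM and TRINITY_DN43453_c0_g8 at 11.0 TPM. TRINITY_DN43453_c0_g8 was thus 0.493 times TRINITY_DN43453_c0_g3, where it was 3.64 to 5.43 times in each F. occidentalis library. TRINITY_DN38554_c0_g4 was at 8.57 TPM in this library and listed at 0 in the other 8, and the unmatched gene TRINITY_DN43453_c0_g7 was listed at 0 in all 3 F. intonsa libraries. All of these come from 1 library, so they have no replicate check. In that library genes naming WN48_00612 took 1.61% of TPM, far more than in the other F. intonsa libraries. Whether some of the library's SNMP2 transcripts are F. occidentalis RNA was not tested.

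SNMP1 genes of component TRINITY_DN41797_c0 divided by species, as did most genes of the table, where 9928 of 48889 were above 0 in both. TRINITY_DN41797_c0_g7 and TRINITY_DN41797_c0_g8 were above 0 in all 6 F. occidentalis libraries and listed at 0 in all 3 of F. intonsa. TRINITY_DN41797_c0_g3 was at 1.91, 9.62 and 0 TPM and TRINITY_DN41797_c0_g5 at 1.58, 7.29 and 0 TPM in F. intonsa libraries 1, 2 and 3, and both were listed at 0 in all F. occidentalis libraries. The 4 genes carry the same annotation text. The latter pair have nearly equal listed lengths, 1059 and 1062 bases. Whether the genes of each species are counterparts was not tested, since the table holds no sequence. TRINITY_DN39854_c0_g1 was listed at 0 in F. intonsa. Component TRINITY_DN41797_c0 also held 4 genes without a database match, above 0 in F. intonsa alone. TRINITY_DN41797_c0_g11 read 745.65, 9.13 and 97.54 TPM and TRINITY_DN41797_c0_g10 36.04, 21.21 and 991.3 TPM in F. intonsa libraries 1, 2 and 3. The others read at most 7.67 TPM. The unmatched TRINITY_DN39854_c0_g4 read 80.54, 460.83 and 3.6 TPM there, and TRINITY_DN39854_c0_g16 0 TPM. Whether these belong to SNMP1 transcripts was not tested.

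Of the 4 SNMP genes tested between the females of both species, 3 passed the threshold as lower in F. intonsa, against 68.3% of all 21231 genes called in that direction, 17.1% called as higher and 85.4% called in either. The same 3 had an unadjusted p under 0.05, against 86.0% of all genes. With at least 2 F. intonsa libraries at 0, these genes could enter the test only through F. occidentalis libraries at 1 TPM or more, so the counts are no support for a difference. The 3 SNMP2 genes tested were above 0 in F. intonsa library 2 alone. TRINITY_DN38554_c0_g3 was lower by a log2 difference of −3.50 ± 1.11 (SE, n = 3 each; limma-trend adjusted p = 0.0277), as was TRINITY_DN43453_c0_g8, at −2.91 ± 1.08 (SE; adjusted p = 0.0476). TRINITY_DN41797_c0_g7 was called against a listing of 0, no fold is given, and without any 1 F. occidentalis library it no longer entered the test. The difference for TRINITY_DN43453_c0_g3, −0.66 ± 1.34 (SE), did not pass (adjusted p = 0.664). With values of 0 in 2 of 3 libraries, these differences depend on the pseudocount: with 0.1 in place of 1 they were −5.69, −5.08 and −2.55, and the call of TRINITY_DN43453_c0_g8 was lost (adjusted p = 0.0617). The median of all genes tested was −2.35, and relative to it the log2 fold changes of TRINITY_DN38554_c0_g3, TRINITY_DN43453_c0_g8 and TRINITY_DN43453_c0_g3 were −1.14, −0.55 and 1.69. Quantile normalization moved that median by 2.15 and ended the calls of TRINITY_DN38554_c0_g3 (adjusted p = 0.121) and TRINITY_DN43453_c0_g8 (adjusted p = 0.384). Leaving out F. intonsa library 1 or 3, or any library of F. occidentalis females, also ended these calls. Without F. intonsa library 2 all 4 genes passed, with every SNMP value in F. intonsa that entered the test then at 0.

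Listings at 0 in F. intonsa were common among genes with such levels in F. occidentalis. Of 11026 genes whose mean in F. occidentalis females lay between 3.71 and 26.6 TPM, the range of the SNMP2 genes, 89.9%, 74.4% and 94.0% were listed at 0 in F. intonsa libraries 1, 2 and 3. These genes were picked by their level in F. occidentalis, and no other range was examined. Whether level has a part in these zeros was therefore not tested.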

How the data were processed

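The authors deposited 1 table of TPM for 48889 assembled genes of both species, with annotation text and a listed length (unit "other", in bases) per gene. The unit was taken from column totals and from Salmon. The tools named in the submitters' processing notes are cutadapt, FastQC and Salmon, without versions. The assembler, the annotation release or any filter was not given in the sources used here. In the table, the smallest row maximum was 5.01 TPM. Per the labels' protocols, cDNA came from low input by template switching and PCR. TPM keeps no read numbers, so depth is unknown and no counting interval or floor is given. No pair of libraries shared more than 0.518% of its nonzero values. No sequence table was used.

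The table was fitted in R 4.3.3 with limma-trend (version 3.58.1) on log2(TPM + 1), since the table holds no counts, with at least 1 TPM in at least 3 libraries of the comparison, no covariate, and Benjamini-Hochberg adjustment over all genes tested at a threshold of 0.05. For low genes this scale makes fold changes smaller than they are. Sexes were compared in the 6 F. occidentalis libraries and species in the 6 female libraries. Single values were compared with exact two-sided permutation tests (scipy 1.17.1, Python 3.11.15). Sums of SNMP1 and SNMP2 genes and the ratios were added after the values were seen. The members and lists were chosen with earlier results of these data known. Every member is named, with values per library where a group mean reached 1 TPM. Of the other lists the rule was genes past the threshold, up to 4 per list and direction, and the 3 of highest mean, of which the text gives the leading ones. Of the CD36 family, TRINITY_DN43030_c0_g8 and the peste matches were named after their values were seen. The gene lists rest on annotation wording, with misleading wording removed after it was read.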

Additional observations from a re-analysis of the deposited data

How the results depend on the processing

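In the sex comparison, 0 SNMP genes passed the threshold under any of the 13 alternatives, with smallest adjusted p-values (limma) from 0.0693 to 0.298. The log2 fold changes of TRINITY_DN38554_c0_g3, TRINITY_DN43453_c0_g8 and TRINITY_DN43453_c0_g3 stayed positive, from 1.24 to 1.82, 1.19 to 1.76 and 1.17 to 1.69. That of TRINITY_DN41797_c0_g7 ranged from −0.56 to 0.12 with 1 library left out and turned positive without male library 1. The ratio of summed SNMP levels ranged from 2.27 to 3.20, and that of SNMP1 from 0.898 without male library 2 to 1.59 without male library 1. Genes past the threshold numbered 415 in all, 271 with a pseudocount of 0.1, 116 without a filter, 207 with quantile normalization, 198 without trend, and 18 to 285 with 1 library left out. The family and olfactory lists had 0 called genes, but 1 with all 9 libraries in 1 fit, an esterase (TRINITY_DN42488_c0_g4), and 0 to 1 with 1 library left out, where the 1 was a chemosensory protein (TRINITY_DN13342_c0_g1).

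In the species comparison, 18127 genes passed, 11047 with quantile normalization and 3346 to 16126 with 1 library left out, where leaving out an F. occidentalis library left 7802 to 7825 genes to test. SNMP genes called numbered 3, but 2 with a pseudocount of 0.1, 1 with quantile normalization and 0 to 4 with 1 library left out. TRINITY_DN38554_c0_g3 also missed the threshold without a filter (adjusted p = 0.0539) and rescaled over genes above 0 in both species (0.0760). TRINITY_DN43453_c0_g8 missed it with a pseudocount of 0.1 (0.0617), without a filter (0.0900) and rescaled (0.115), so the 3 genes called rescaled or without a filter were the SNMP1 genes listed at 0 in all F. intonsa libraries. TRINITY_DN43453_c0_g3 turned to 1.28 with quantile normalization and to 0.10 without F. intonsa library 1 or 3, and its range with 1 library left out was −2.17 to 0.10. The ratio of summed SNMP levels, 0.427, was 0.816 when rescaled, turned to 1.07 with quantile normalization, and ranged from 0.0302 to 0.641 with 1 library left out. The cause of these changes was not tested.

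No pairing by replicate number was seen: correlations of same-numbered deviations were −0.029, 0.050 and −0.035 between the sexes and 0.027, 0.000 and −0.055 between the species. The labels do not state a pairing, and 3 libraries per group cannot exclude it. With the replicate block the sex comparison had 363 calls, 0 of them SNMP genes, and the species comparison 18104, with 2 SNMP genes and TRINITY_DN43453_c0_g8 at an adjusted p of 0.0694. Depth is unknown, so what it limits cannot be given.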
